A study of Mus musculus with 12 samples.

Results

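Glycolysis and hypoxia genes were followed in T-ALL of the mouse, the acute lymphoblastic leukaemia that arises from T cell precursors. The members were chosen by gene symbol: 38 symbols of glucose and lactate transport, the glycolytic enzymes, the pyruvate dehydrogenase kinases, the hypoxia-inducible factor HIF with its oxygen sensors and targets, and glucose-responsive arrestins. Of these, 37 were listed among the 23174 rows of each of the 2 deposited tables, with pyruvate kinase under its current symbol Pkm and no row named Pkm2.

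Glycolysis turns glucose into pyruvate, and lactate dehydrogenase turns pyruvate into lactate, which lets rapidly dividing cells, leukaemia cells among them, make energy and building blocks with little use of oxygen. HIF-1 is a transcription factor made of an oxygen-controlled alpha subunit and a stable partner. In low oxygen the alpha subunit escapes destruction and raises the genes of glucose uptake, glycolysis, blood vessel growth and mitochondrial turnover. Txnip and Arrdc4 are arrestin-like proteins whose genes respond to glucose through the factor MondoA, and Txnip restrains glucose uptake.

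All samples were T-ALL cells of C57BL/6 mice that carried Notch1-deltaE, an activated form of Notch1, per the labels. Ex vivo, 3 samples received AMD3100, an antagonist of CXCR4, which is the receptor of the chemokine CXCL12, and 3 received vehicle (dose and duration not given in the sources used here). The other experiment held 3 primary tumours that were Cxcr4-/- (knockout, numbers 5, 7 and 8) and 3 that were Cxcr4+/+ (wild type, numbers 1, 2 and 4), with the way of deletion and the animals' ages not given in the sources used here. Per the labels' protocol, spleen-derived leukaemia cells were kept on OP9 stromal cells with IL-7, so RNA of the feeder layer can be present, and whether this culture also applies to the tumours is unclear from the labels. No label states that replicates are separate animals or separate cultures, so each p-value reflects the spread of the samples at hand, which may be technical. The samples are bulk RNA, in which fewer cells of a type and less RNA per cell cannot be told apart.

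Levels are given as FPKM (fragments per kilobase, normalised to library size), a level per length that can be compared between genes within a table. Library totals cannot be read from FPKM, but the steps between low values put the depth of the AMD3100 samples at 1.06, 1.25 and 1.21 times that of vehicle sample 1, and vehicle samples 2 and 3 at 0.908 and 0.757 times. T cell marker genes summed to 3570, 3970 and 3700 FPKM in AMD3100 samples 1, 2 and 3, against 4240, 4190 and 3950 FPKM in vehicle samples 1, 2 and 3. Stromal marker genes summed to 168, 199 and 21.2 FPKM in the AMD3100 samples and to 152, 183 and 10.7 FPKM in the vehicle samples, with Dcn and Lum at 0 throughout. Most of this sum was 1 gene, Pdgfrb, at 144, 186 and 11.2 FPKM in the AMD3100 samples and 136, 160 and 4.2 FPKM in the vehicle samples. Without Pdgfrb the sums were 23.5, 13.3 and 9.99 FPKM in the AMD3100 samples and 16.1, 23.5 and 6.49 FPKM in the vehicle samples, so the number 3 samples were lowest in both groups but by less. Cxcr4 itself stood at 23.2, 78.9 and 21.9 FPKM in knockout tumours 5, 7 and 8, against 241, 155 and 206 FPKM in wild-type tumours 1, 2 and 4. Knockout tumours were therefore low but not at 0 for the deleted gene, and the labels do not say which exons the deletion removed.

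The promoters of 4 members called below in AMD3100-treated cells are shown, as examples, to make the letters read by HIF and by MondoA visible. Each is the 150 bases before the RefSeq transcription start in build GRCm38.p6, written 5′ to 3′ on the strand of the gene. Capitals mark ACGTG or GCGTG on either strand, the core letters of a HIF site, in the first 3 sequences, and the paired CACGNG boxes of a glucose response element in Txnip. Hk2 lies at chr6:82774455-82774604 on the minus strand, and the others lie on the plus strand, P4ha1 at chr10:59323146-59323295, Ldha at chr7:46845654-46845803 and Txnip at chr3:96557807-96557956.
Hk2: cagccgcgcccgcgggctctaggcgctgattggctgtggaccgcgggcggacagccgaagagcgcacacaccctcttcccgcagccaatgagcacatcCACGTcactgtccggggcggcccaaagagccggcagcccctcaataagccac
P4ha1: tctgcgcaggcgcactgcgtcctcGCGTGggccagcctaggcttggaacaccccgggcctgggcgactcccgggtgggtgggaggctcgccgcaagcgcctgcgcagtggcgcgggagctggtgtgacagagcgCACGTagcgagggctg
Ldha: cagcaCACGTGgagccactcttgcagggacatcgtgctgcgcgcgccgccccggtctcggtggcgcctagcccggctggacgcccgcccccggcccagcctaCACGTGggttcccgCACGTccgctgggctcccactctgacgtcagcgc
Txnip: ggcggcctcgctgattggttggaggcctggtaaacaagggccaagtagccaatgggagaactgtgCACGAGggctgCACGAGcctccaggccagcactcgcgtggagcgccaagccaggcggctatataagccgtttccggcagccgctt

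These letters are short and common in GC-rich promoters. In the 250 bases before the start, 40 of 49 windows of 34 members held ACGTG or GCGTG on either strand (81.6%), against 38.6% of all 32851 windows. Among the members called below but not shown, Tpi1 had 0 such cores in its window. Vegfa, Pkm and Hk1 had 0 in 1 window and 2, 1 and 3 in another. Pfkl had 1, Pfkp had 3, and Bnip3l had no window. The median GC content was 62.8% in the member windows and 52.4% in all windows. CACGTG, the letters of an E-box, which contain ACGTG on both strands, stood in 8 member windows (16.3%) and in 6.02% of all windows. A pair of CACGNG boxes with 5 bases between them, searched on either strand, stood in 1 member window, that of Txnip, and in 15 windows of all genes (0.0457%). A match is a description of letters and not a measured binding site.

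In AMD3100-treated cells, members moved in both directions. With same-numbered AMD3100 and vehicle samples taken as pairs, Hk2, Pfkp, P4ha1 and Vegfa rose, and Hk1, Pfkl, Tpi1, Pkm, Ldha, Bnip3l and Txnip fell. These were 4 higher and 7 lower of the 31 members with a mean of at least 1 FPKM (12.9% and 22.6%), against 9.96% higher and 9.92% lower (19.9% in either direction) of all 10245 genes tested. An unadjusted p under 0.05 was reached by 16 members and by 39% of all genes. "Rose" and "fell" are used for an adjusted p under 0.05 in this paired limma fit of log2(FPKM + 1), and each log2 change is AMD3100 minus vehicle on that scale. Without the pairing, 0 of 31 members were called, when 13 of 10245 genes (0.127%) were; 9 members and 21.5% of all genes had an unadjusted p under 0.05 in that limma fit. With 2 pairs fewer members were called: 0 without pair 1, only Txnip without pair 2, and Ldha, Tpi1, Txnip and Vegfa without pair 3. The log2 changes of the 11 members kept their sign in these fits, from -0.91 to -0.65 for Ldha and from -0.33 to -0.30 for Hk1, for example.

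The glycolytic steps and the transporters counted 18 tested members, of which 2 rose and 5 fell, with a median log2 change of -0.148. The HIF, kinase and arrestin members counted 13, of which 2 rose and 2 fell, with a median of -0.159. Over all members the median was -0.159, against 0.00225 over all genes tested. Summed, the 37 listed members took 0.484%, 0.566% and 0.437% of the summed FPKM in AMD3100 samples 1, 2 and 3, against 0.658%, 0.638% and 0.582% in vehicle samples 1, 2 and 3. Every AMD3100 sample lay below every vehicle sample in this share, at 0.496% ± 0.0652 against 0.626% ± 0.0395 (SD, n = 3 each; two-sided exact permutation p = 0.1, the smallest that 3 against 3 allows). Pkm and Ldha alone, a pair of abundant rows whose levels are uncertain through pseudogene matches described below, took 0.212%, 0.258% and 0.172% with AMD3100 and 0.34%, 0.337% and 0.294% with vehicle. With that pair left out, a choice made after seeing the data, the other 35 members took 0.272%, 0.308% and 0.265% with AMD3100 and 0.318%, 0.302% and 0.288% with vehicle, which overlapped (exact permutation p = 0.3).

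**Figure D1:**
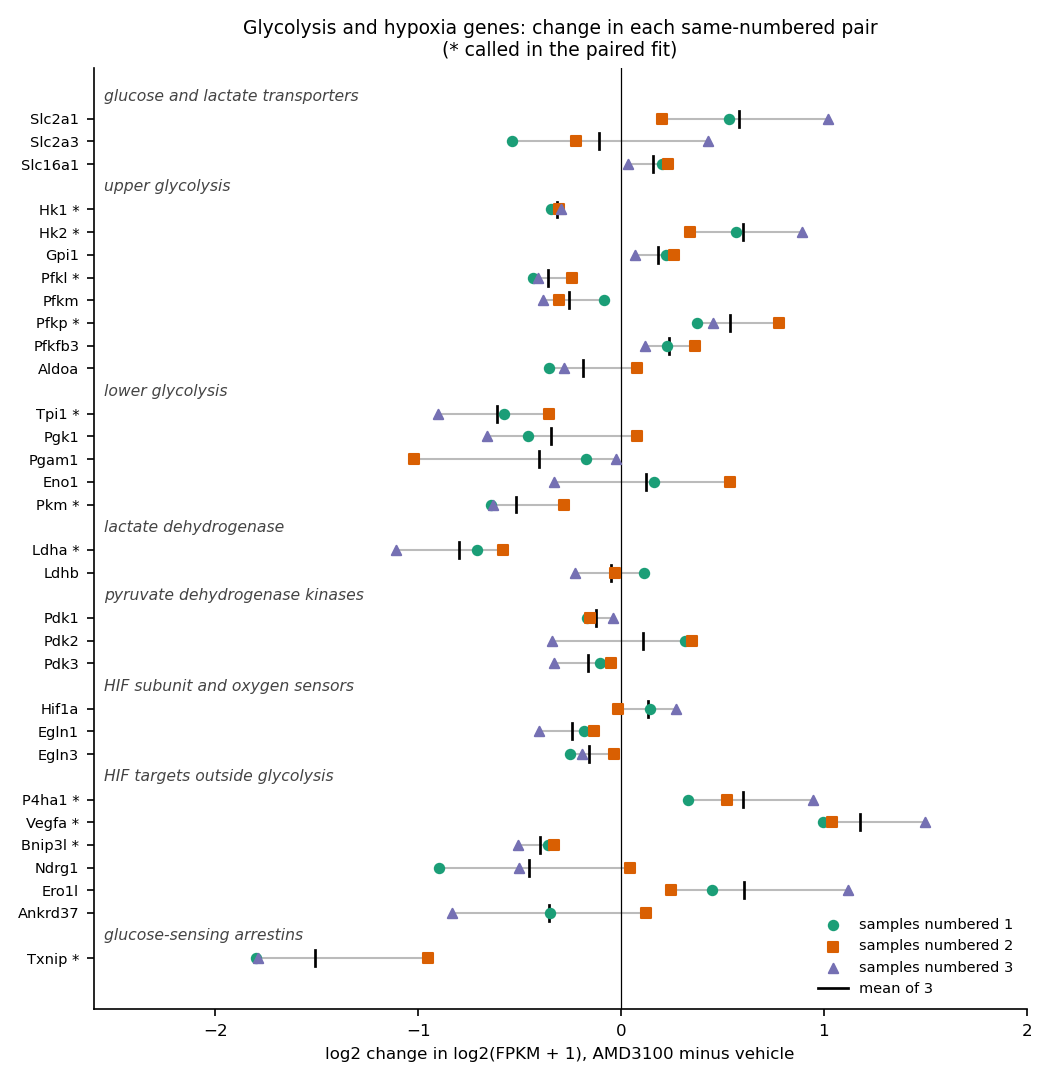
Log2 change of each tested member (AMD3100 minus vehicle, log2(FPKM + 1) scale) in pairs 1, 2 and 3, ordered by role. Points are single pairs. Members that moved in 1 direction in all 3 pairs lie wholly on one side of 0.

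Glucose enters through the transporters and lactate leaves through Slc16a1 and Slc16a3, and none of the 3 tested transporters passed the paired test. Slc2a1, the glucose transporter GLUT1 and a HIF target, had 13.6, 12.5 and 14.1 FPKM in AMD3100 samples 1, 2 and 3, against 9.11, 10.8 and 6.45 FPKM in vehicle samples 1, 2 and 3. All AMD3100 values lay above all vehicle values, yet the log2 change of 0.58 (SE 0.17) had an adjusted p of 0.0709 in the paired limma fit. Slc2a3, the neuronal-type transporter GLUT3 that lymphocytes also use, had 4.82, 3.08 and 6.01 FPKM in AMD3100 samples and 7.45, 3.76 and 4.21 FPKM in vehicle samples, which overlapped. The lactate exporter Slc16a1 (MCT1) ranged from 80.0 to 98.2 FPKM with AMD3100 and from 67.9 to 95.8 FPKM with vehicle, whereas the hypoxia-linked exporter Slc16a3 (MCT4) averaged under 1 FPKM.

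Hexokinases trap glucose as glucose 6-phosphate, and the pair of isoforms moved in opposite directions. Hk2, the inducible isoform, had 15.7, 15.9 and 15.3 FPKM in AMD3100 samples 1, 2 and 3, against 10.2, 12.3 and 7.76 FPKM in vehicle samples 1, 2 and 3. The groups did not overlap, and the 3 AMD3100 values were nearly equal. Hk2 rose by 0.60 on the log2 scale (SE 0.13, adjusted p = 0.0364 paired and 0.118 unpaired). Hk1, the widely expressed isoform, had 47.8, 48.0 and 23.8 FPKM in AMD3100 samples and 61.0, 59.6 and 29.4 FPKM in vehicle samples. Each AMD3100 sample lay below the vehicle sample of its number, while the groups overlapped because both number 3 samples were low. Hk1 fell by 0.32 on the log2 scale (SE 0.063, adjusted p = 0.0316 paired and 0.723 unpaired). Hk2 made up 24.7%, 24.8% and 39.1% of the Hk1 and Hk2 sum with AMD3100, against 14.4%, 17.2% and 20.9% with vehicle. This share was higher in every AMD3100 sample, at 29.5% ± 8.28 against 17.5% ± 3.26 (SD, n = 3 each; two-sided exact permutation p = 0.1, the smallest possible).

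Phosphofructokinase commits the sugar to glycolysis, and its subunit genes were also split. Pfkp, the platelet-type subunit, had 30.3, 30.9 and 45.0 FPKM in AMD3100 samples 1, 2 and 3, against 23.1, 17.6 and 32.6 FPKM in vehicle samples 1, 2 and 3. Every pair was higher with AMD3100 although vehicle sample 3 exceeded AMD3100 samples 1 and 2, and Pfkp rose by 0.54 (log2, SE 0.10, adjusted p = 0.0299 paired and 0.302 unpaired). Pfkl, the liver-type subunit, had 27.8, 26.9 and 21.8 FPKM with AMD3100 and 37.9, 32.0 and 29.3 FPKM with vehicle. All AMD3100 values lay below all vehicle values, and Pfkl fell by 0.36 (log2, SE 0.076, adjusted p = 0.0354 paired and 0.213 unpaired). Pfkm, the muscle-type subunit, ranged from 6.88 to 13.4 FPKM with AMD3100 and from 9.29 to 16.8 FPKM with vehicle and was not called. Pfkp held 43.4%, 43.4% and 61.1% of the summed Pfkl, Pfkm and Pfkp level with AMD3100, against 31.4%, 26.5% and 45.8% with vehicle. The share was higher with AMD3100 in every pair, while the groups overlapped (exact permutation p = 0.3, without regard to the pairs).

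**Figure D2:**
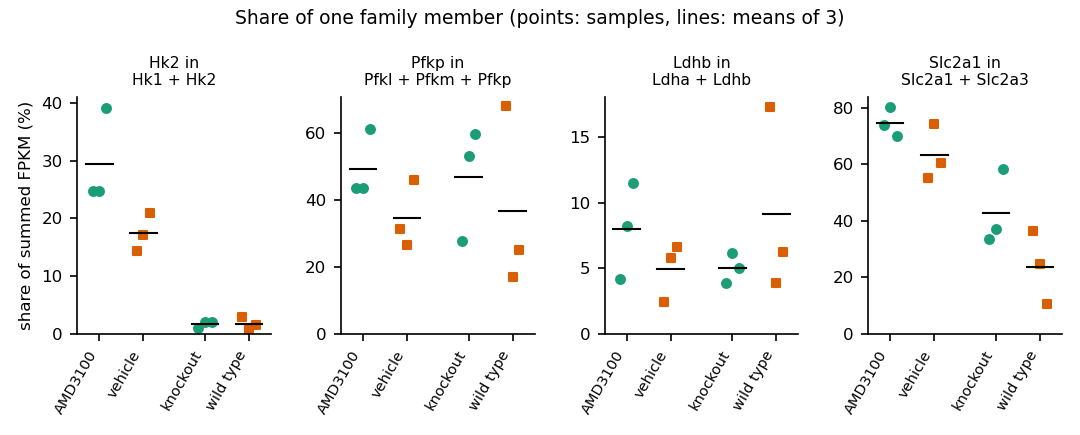
Share of the summed FPKM (percent) held by 1 isoform of an enzyme or transporter family, by sample, for AMD3100 and vehicle cells and for knockout and wild-type tumours. Points are samples; the Hk2 share lies between 24.7% and 39.1% with AMD3100 and between 14.4% and 20.9% with vehicle.

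Pfkfb3 makes the allosteric activator of phosphofructokinase. It had 4.0, 8.32 and 21.9 FPKM in AMD3100 samples 1, 2 and 3, against 3.28, 6.23 and 20.1 FPKM in vehicle samples 1, 2 and 3, so samples of different number differed far more than the treatments did (adjusted p = 0.15 paired). Aldoa, the main aldolase of these cells, had 368, 379 and 331 FPKM with AMD3100 and 471, 359 and 403 FPKM with vehicle. These groups overlapped, and Aldoa was not called (log2 change -0.19, adjusted p = 0.258 paired). Gpi1, the isomerase between the hexokinase and phosphofructokinase steps, ranged from 129 to 151 FPKM with AMD3100 and from 123 to 129 FPKM with vehicle. Before rounding, its groups did not overlap, and every pair was higher with AMD3100, but Gpi1 was not called (log2 change 0.18, adjusted p = 0.124 paired). Aldoc, the brain-type aldolase, averaged under 1 FPKM.

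In the lower part of the pathway the 2 called genes both fell. Tpi1, which interconverts the pair of triose phosphates, had 107, 124 and 91.1 FPKM in AMD3100 samples 1, 2 and 3, against 160, 159 and 171 FPKM in vehicle samples 1, 2 and 3. The groups lay far apart, and Tpi1 fell by 0.61 (log2, SE 0.12, adjusted p = 0.0302 paired and 0.0711 unpaired). Pkm, the pyruvate kinase that makes pyruvate and the member with the highest mean level ex vivo, had 601, 761 and 446 FPKM with AMD3100 and 938, 924 and 690 FPKM with vehicle. Each pair was lower with AMD3100, and Pkm fell by 0.52 (log2, SE 0.11, adjusted p = 0.0331 paired and 0.266 unpaired). The values do not divide the Pkm row into its M1 and M2 splice forms.

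Pgk1, the first ATP-making enzyme of the pathway and a HIF target, had 8.54, 8.78 and 6.85 FPKM in AMD3100 samples 1, 2 and 3, against 12.1, 8.26 and 11.4 FPKM in vehicle samples 1, 2 and 3. The groups overlapped through pair 2, and the adjusted p was 0.184 paired. Eno1, the enolase, had 38.9, 58.0 and 17.9 FPKM with AMD3100 and 34.6, 39.6 and 22.8 FPKM with vehicle, higher in pairs 1 and 2 and lower in pair 3. Pgam1, the phosphoglycerate mutase, ranged from 1.78 to 1.98 FPKM with AMD3100 and from 2.03 to 4.62 FPKM with vehicle; the groups did not overlap, but the adjusted p was 0.264 paired. Gapdh, which every cell uses, was listed at 0, 0.108 and 0 FPKM in AMD3100 samples 1, 2 and 3 and at 0.135, 0 and 0.179 FPKM in vehicle samples 1, 2 and 3. A value of 0 in these tables may therefore be a failed estimate.

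Processed pseudogenes, which copy a gene's messenger RNA back into the genome, are frequent for several glycolytic enzymes. Of the 50-base windows of the longest coding transcript, 83.1% for Gapdh and 67.9% for Pgk1 matched an annotated pseudogene transcript within 2 mismatches. The share was 66.7% for Ldhb, 64.3% for Pkm, 63.5% for Eno1, 49.0% for Ldha, 47.9% for Gpi1, 41.5% for Pgam1, 39.5% for Aldoa and 31.1% for Tpi1. Outside glycolysis the largest shares were 30.2% for Bnip3 and 17.6% for Bnip3l. Hk1, Hk2, Pfkp, P4ha1, Txnip and Hif1a had no such window. Gapdh, Pgk1 and Pgam1 had exact matches over 82.3%, 67.9% and 41.5% of their windows and were listed low, Eno1 had exact matches over 52.8%, and Ldha and Pkm, listed high, had 16.6% and 30.4%. How the deposited values treated reads that match several places is not given in the sources used here, its part in these levels was not tested, and levels of the members with such windows are uncertain.

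**Figure D3:**
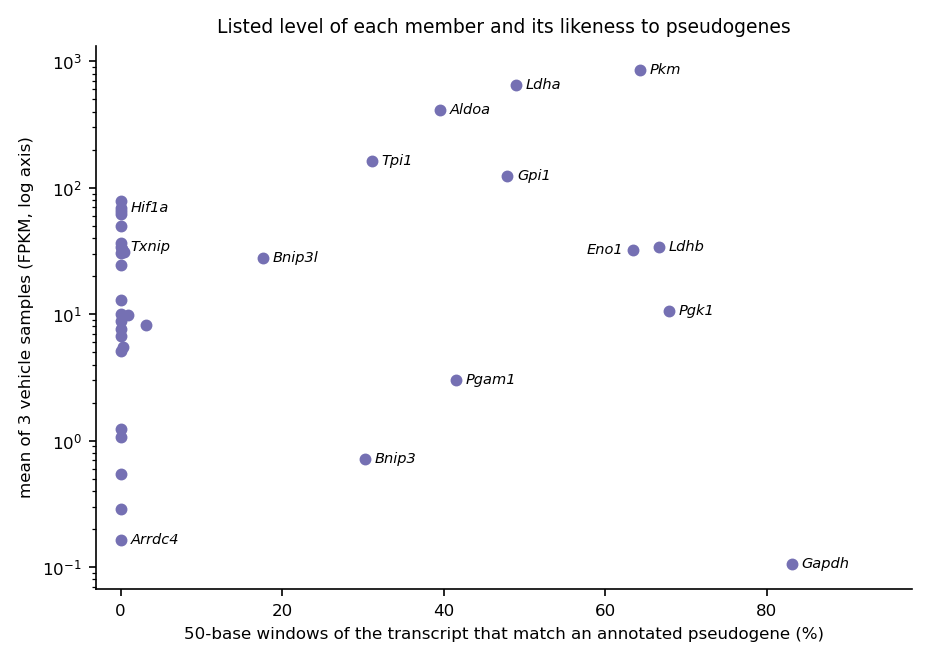
Mean level of each member in the 3 vehicle samples (FPKM, log axis) against the percentage of its 50-base transcript windows that match an annotated pseudogene within 2 mismatches. Each point is a gene; Gapdh lies at 83.1% with the lowest level, while Pkm and Ldha lie at 64.3% and 49.0% with the highest levels.

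Lactate dehydrogenase closes the pathway. Ldha, the isoform that favours lactate production and a HIF and Myc target, had 391, 384 and 334 FPKM in AMD3100 samples 1, 2 and 3, against 639, 576 and 722 FPKM in vehicle samples 1, 2 and 3. The groups were widely separated, at 369 ± 31.1 against 645 ± 73.3 FPKM (SD, n = 3 each). Ldha fell by 0.80 (log2, SE 0.12, adjusted p = 0.0221 paired and 0.0544 unpaired), the largest change of a glycolytic member among those called. Ldhb, the isoform that favours pyruvate, had 17.1, 34.6 and 43.4 FPKM with AMD3100 and 15.8, 35.3 and 51.0 FPKM with vehicle. Its level differed more between sample numbers than between treatments, and the adjusted p was 0.725 paired.

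Pyruvate dehydrogenase kinases switch off the entry of pyruvate into mitochondrial oxidation, and none of the 3 was called. Pdk1, a HIF target, had 29.1, 24.8 and 32.3 FPKM in AMD3100 samples 1, 2 and 3, against 32.9, 27.7 and 33.3 FPKM in vehicle samples 1, 2 and 3. All 3 pairs were lower with AMD3100, by a mean log2 change of -0.12 (adjusted p = 0.258 paired). Pdk3 ranged from 28.0 to 36.9 FPKM with AMD3100 and from 35.4 to 38.2 FPKM with vehicle, and Pdk2 was listed between 0 and 2.65 FPKM.

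The oxygen-sensing genes were not called either. Hif1a, the oxygen-controlled subunit, had 73.2, 71.5 and 83.2 FPKM in AMD3100 samples 1, 2 and 3, against 66.3, 72.1 and 68.7 FPKM in vehicle samples 1, 2 and 3 (log2 change 0.13, adjusted p = 0.272 paired). Its protein is controlled largely by degradation, which RNA does not report. Egln1, the prolyl hydroxylase PHD2 that marks HIF for destruction and is itself a HIF target, had 25, 26.0 and 25.5 FPKM with AMD3100 and 28.4, 28.6 and 34.1 FPKM with vehicle. Every AMD3100 value lay below every vehicle value (log2 change -0.24, adjusted p = 0.103 paired). Egln3, the inducible hydroxylase PHD3, had 51.2, 64.6 and 51.6 FPKM with AMD3100 and 61.1, 66.3 and 59.0 FPKM with vehicle, which overlapped (adjusted p = 0.173 paired).

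HIF targets outside glycolysis did not share a direction. Vegfa, the growth factor of blood vessels, had 13.1, 15.7 and 11.5 FPKM in AMD3100 samples 1, 2 and 3, against 6.08, 7.13 and 3.42 FPKM in vehicle samples 1, 2 and 3. The groups did not overlap, and Vegfa rose by 1.18 (log2, SE 0.13, adjusted p = 0.0197 paired and 0.0774 unpaired). P4ha1, a collagen prolyl hydroxylase, had 8.13, 10.8 and 13.9 FPKM with AMD3100 and 6.27, 7.23 and 6.75 FPKM with vehicle. All AMD3100 values were the higher ones, and P4ha1 rose by 0.60 (log2, SE 0.15, adjusted p = 0.047 paired and 0.16 unpaired). Bnip3l (NIX), a receptor for the removal of mitochondria, had 22.4, 21.4 and 18.9 FPKM with AMD3100 and 29.0, 27.1 and 27.3 FPKM with vehicle. The groups were again apart in the other direction, and Bnip3l fell by 0.40 (log2, SE 0.076, adjusted p = 0.0302 paired and 0.0851 unpaired).

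Its relative Bnip3 averaged under 1 FPKM, with 0.169, 0.215 and 1.41 FPKM in AMD3100 samples 1, 2 and 3 and 0.359, 0.494 and 1.3 FPKM in vehicle samples 1, 2 and 3. Ero1l, an oxidase of protein folding in the endoplasmic reticulum, ranged from 8.24 to 22.5 FPKM with AMD3100 and from 5.78 to 9.82 FPKM with vehicle and missed the threshold (adjusted p = 0.08 paired). Ndrg1, a stress-responsive gene, ranged from 18.9 to 74.2 FPKM with AMD3100 and from 27.2 to 96.4 FPKM with vehicle, with both number 3 samples lowest. Ankrd37 was not called, and the collagen hydroxylase P4ha2 averaged under 1 FPKM.

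Txnip, whose paired boxes are shown above, changed most of all tested members. It had 8.69, 10.5 and 13.1 FPKM in AMD3100 samples 1, 2 and 3, against 32.8, 21.2 and 47.8 FPKM in vehicle samples 1, 2 and 3. The highest AMD3100 value lay below the lowest vehicle value, at 10.8 ± 2.24 against 33.9 ± 13.3 FPKM (SD, n = 3 each). Txnip fell by 1.51 (log2, SE 0.19, adjusted p = 0.0197 paired and 0.0706 unpaired). Arrdc4, the other arrestin of this kind, had 0.147, 0.0903 and 0.515 FPKM with AMD3100 and 0.157, 0.124 and 0.207 FPKM with vehicle, too low to be tested.

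**Figure D4:**
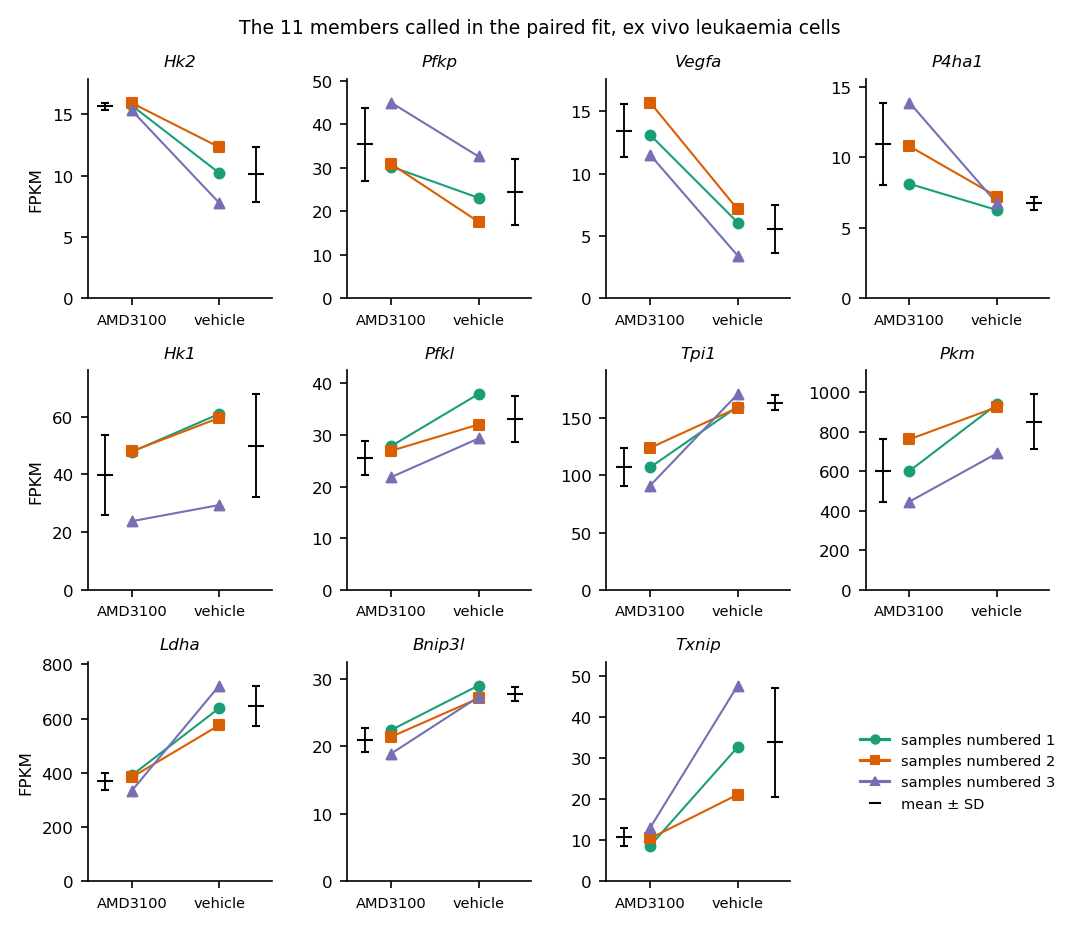
FPKM by sample for the 11 members called in the paired fit, AMD3100 left and vehicle right of each panel, with lines joining same-numbered samples and bars for mean and SD (n = 3 each). Ldha lies at 334 to 391 FPKM with AMD3100 and at 576 to 722 FPKM with vehicle, and Hk1 overlaps between groups although each AMD3100 point lies below the vehicle point joined to it.

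The differences between sample numbers were as large as those between treatments for many members. For 17 of 31 members the range of the 3 pair means exceeded the mean AMD3100 change on the log2 scale. Pair 3 had the lowest mean for 18 members, the highest for 10 and the middle one for 3. The range was widest for Pfkfb3 at 2.25, for Ndrg1 at 1.65 and for Pdk2 at 1.52. Of the members, 9 were higher with AMD3100 in all 3 pairs and 13 were lower in all 3. The share of all genes that did so was not counted, so these counts do not set the members apart. Groups did not overlap for 5 members higher with AMD3100 and 7 lower, against 13.1% higher and 15.8% lower (28.9% in either direction) of all genes tested.

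Transcript length moved with the direction of the paired calls. The longest coding transcripts of the 4 members that rose had a median of 4094 bases, against 2827 bases for the 7 that fell. Members not called had a median of 2881.5 bases, close to that of the members that fell. Over all genes the medians were 4656.5 bases for those that rose and 1891.5 bases for those that fell. With each pair corrected for length, an alternative chosen after seeing the data, 2 members rose (Vegfa, log2 change 1.17, adjusted p = 0.0303, and Pfkp, 0.48, adjusted p = 0.048) and 5 fell (Ldha, Txnip, Hk1, Pfkl and Bnip3l). Hk2 (0.47, adjusted p = 0.0725), P4ha1 (0.55, adjusted p = 0.0713), Tpi1 (-0.47, adjusted p = 0.0569) and Pkm (-0.46, adjusted p = 0.0516) then missed the threshold. Pfkp also missed it (0.29, adjusted p = 0.128) when the longest transcript of any kind, retained introns included, was used. Of the other pathway genes named below, Bsg, Fbp1, Minpp1, Pgd and Dld stayed under 0.05 after the correction for coding transcript length. Mif, Angptl4, Stc2, Arrdc3 and Klf10 did so too, and those that missed the threshold are given below. No such correction was made for the tumours, where the part of transcript length was not tested.

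Other genes of the same pathways, taken from lists chosen with earlier results of these data known, were read from the same paired fit, in which 9.96% of all genes tested rose and 9.92% fell. Of 15 other glycolytic enzymes and transporters, 1 rose and 2 fell. Bsg, the chaperone (basigin) that carries the lactate transporters to the membrane, fell by 0.53, with 164, 159 and 164 FPKM in AMD3100 samples 1, 2 and 3 against 230, 212 and 265 FPKM in vehicle samples 1, 2 and 3 (adjusted p = 0.0221). Fbp1, the gluconeogenic fructose bisphosphatase, fell by 1.26, with 17.1, 0.181 and 18.5 FPKM against 45.1, 1.5 and 48.5 FPKM in vehicle (adjusted p = 0.018). Both number 2 samples were low for Fbp1. Minpp1, an inositol polyphosphate phosphatase that also acts on bisphosphoglycerate, rose by 0.28 (adjusted p = 0.0424).

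Of 7 genes of the pentose phosphate pathway, which branches from glucose 6-phosphate and makes NADPH and ribose, 0 rose and 3 fell. Pgd fell by 0.63, with 58.9, 50.8 and 66.7 FPKM in AMD3100 samples 1, 2 and 3 against 98.7, 84.4 and 90.9 FPKM in vehicle samples 1, 2 and 3 (adjusted p = 0.0199), a clear separation. Taldo1 (transaldolase) fell by 0.39 (adjusted p = 0.0229) and G6pdx, the entry enzyme, fell by 0.31 (adjusted p = 0.0369), but both missed the threshold after length correction (adjusted p = 0.0687 and 0.0604). Of 11 genes of the pyruvate dehydrogenase complex and the mitochondrial pyruvate carrier, only Dld, its dihydrolipoamide dehydrogenase, was called; it fell by 0.49 (adjusted p = 0.0275).

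Of 14 HIF partners and regulators, 6 rose and 0 fell. Arnt, the stable partner of HIF alpha subunits, rose by 0.38, with 22.1, 21.6 and 24.7 FPKM in AMD3100 samples 1, 2 and 3 against 17.2, 16.7 and 17.9 FPKM in vehicle samples 1, 2 and 3 (adjusted p = 0.0308, and 0.0555 after length correction). The coactivators Ep300 and Crebbp, which HIF shares with many other factors, rose by 0.70 and 0.64 (adjusted p = 0.0197 each). Their transcripts of 9566 and 10820 bases are long, and after length correction Ep300 stood at 0.43 (adjusted p = 0.0448) and Crebbp at 0.33 (adjusted p = 0.0689). Of the other called regulators, Hif1an, the asparagine hydroxylase that inhibits HIF, had a log2 change of 0.33 (adjusted p = 0.0486) before the correction and of 0.16 (adjusted p = 0.222) after it, while the ubiquitin ligases Siah1a and Siah2 stood at 0.50 and 0.47 after it (adjusted p = 0.0406 and 0.0426). After length correction 3 of the 6 regulators were thus under 0.05, namely Ep300, Siah1a and Siah2; the last 2 and Hif1an were named after their values were seen. Of 22 other HIF targets, 3 rose and 2 fell. Mif, a cytokine, fell by 0.86, with 76.4, 87.5 and 69.8 FPKM with AMD3100 against 165, 129 and 132 FPKM with vehicle (adjusted p = 0.0199), Angptl4, a secreted lipase inhibitor, fell by 0.47 (adjusted p = 0.0299) and the secreted glycoprotein Stc2 rose by 1.53 (adjusted p = 0.0335).

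Of 10 genes of MondoA and the thioredoxin system, 1 rose and 1 fell. Arrdc3, an arrestin related to Txnip, rose by 0.71 (adjusted p = 0.0221), opposite in sign to Txnip, and the transcription factor Klf10 fell by 0.65 (adjusted p = 0.0199). Myc, which drives glycolytic genes such as Ldha in many cancers, had 177, 206 and 116 FPKM in AMD3100 samples 1, 2 and 3, against 203, 214 and 213 FPKM in vehicle samples 1, 2 and 3. Each pair was lower with AMD3100, but Myc was not called (log2 change -0.38, adjusted p = 0.172 paired).

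In the Cxcr4 knockout tumours no member passed the test. Of 31 members with a mean of at least 1 FPKM, 0 were called by limma, when 4 of 10741 genes (0.0372%) were. Cxcr4, the deleted gene, was not called either (log2 change -2.49, SE 0.51, adjusted p = 0.986 by limma). The lack of a call here therefore does not show the lack of a change. At an unadjusted p under 0.05 there were 2 members, P4ha1 and Egln3, and 4.28% of all genes. The median log2 change, knockout minus wild type, was -0.0319 over the members and -0.0262 over all genes. P4ha1 was the only member whose groups did not overlap, when 4.01% of all genes were higher and 5.2% lower without overlap (9.21% in either direction).

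The tumours differed in cell make-up and in sex. The share of haemoglobin RNA in the summed FPKM was 13.8%, 1.78% and 4.27% in knockout tumours 5, 7 and 8, against 0.926%, 4.12% and 17.4% in wild-type tumours 1, 2 and 4. T cell markers summed to 1330, 2780 and 2450 FPKM in knockout tumours and to 3830, 1010 and 1390 FPKM in wild-type tumours, and neutrophil markers to 68.5, 345 and 171 FPKM against 215, 3260 and 5.52 FPKM. In each of these 3 lists the highest and the lowest tumour were wild type, and the knockout tumours lay between them. Other lists differed. Macrophage markers summed to 31.1, 51.8 and 99.6 FPKM in knockout tumours and to 28, 71.8 and 12.9 FPKM in wild-type tumours. B cell markers summed to 9.62, 16.1 and 17.5 FPKM against 9.25, 10.7 and 1.49 FPKM. Both sums were highest in knockout tumour 8 and lowest in wild-type tumour 4. Xist stood at 0.829 to 2.8 FPKM in knockout tumours and at 96.4 to 147 FPKM in wild-type tumours, and Eif2s3y at 24.5 to 38.3 FPKM against 0 to 0.0862 FPKM. Sex and genotype therefore cannot be told apart, also for Pgk1 and Pdk3, which lie on the X chromosome.

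P4ha1 had 11.9, 19.8 and 18.3 FPKM in knockout tumours 5, 7 and 8, against 3.53, 4.63 and 3.86 FPKM in wild-type tumours 1, 2 and 4. Every knockout value lay well above every wild-type value, at 16.7 ± 4.2 against 4.01 ± 0.565 FPKM (SD, n = 3 each). The log2 change was 1.79 (SE 0.35, unadjusted p = 0.00127, adjusted p = 0.986 by limma), and it lay between 1.66 and 2.01 when each tumour was left out. Egln3 had 1.22, 2.65 and 1.43 FPKM in knockout tumours and 16.8, 2.48 and 8.67 FPKM in wild-type tumours. Wild-type tumour 2 lay within the knockout values, and the log2 change of -1.64 (SE 0.65, adjusted p = 0.986) became -1.10 without wild-type tumour 1 and -2.28 without wild-type tumour 2.

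**Figure D5:**
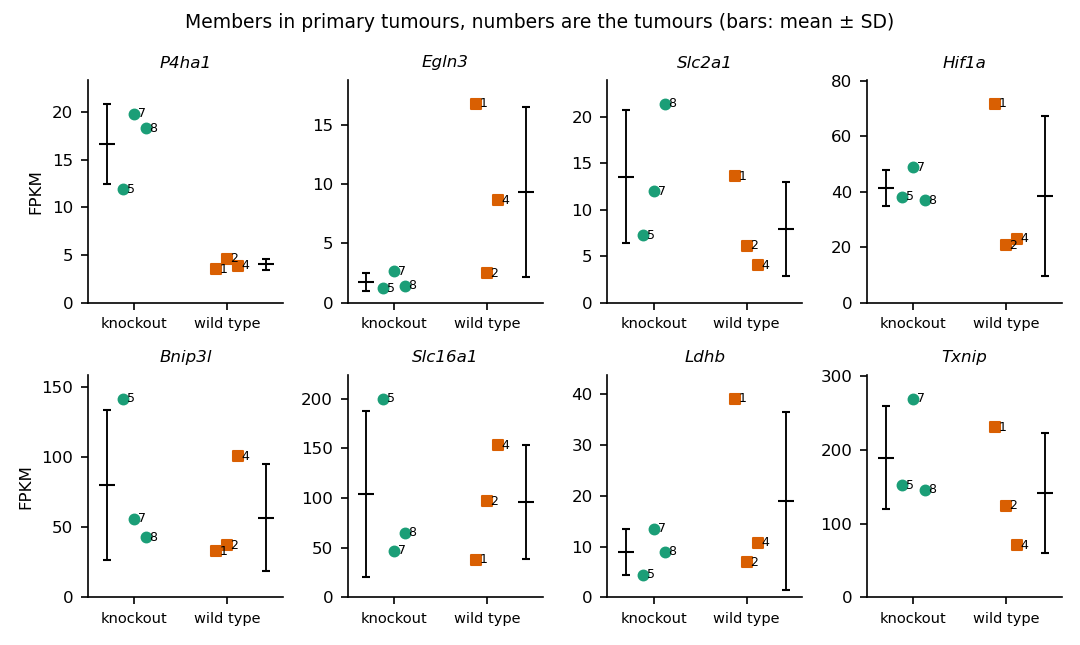
FPKM by tumour for 8 members, knockout left and wild type right of each panel; points are single tumours with their numbers, and bars give mean and SD (n = 3 each). P4ha1 is the only member whose groups do not overlap, with 11.9 to 19.8 FPKM in knockout and 3.53 to 4.63 FPKM in wild-type tumours.

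Apart from P4ha1, the members called with AMD3100 overlapped between tumour genotypes. Ldha had 109, 207 and 171 FPKM in knockout tumours 5, 7 and 8, against 187, 173 and 162 FPKM in wild-type tumours 1, 2 and 4. Txnip had 152, 269 and 146 FPKM in knockout tumours and 230, 124 and 70.8 FPKM in wild-type tumours. Both sets of values interleave, with log2 changes of -0.15 and 0.51. Bnip3l had 142, 56.1 and 43.1 FPKM in knockout tumours and 33.0, 37.2 and 101 FPKM in wild-type tumours, highest in the 2 tumours with most haemoglobin RNA, knockout 5 and wild type 4. BNIP3L is known for clearing mitochondria from maturing red cells, and its part here was not tested. Vegfa was listed at 0.957, 0 and 0 FPKM in knockout tumours and at 0, 0.774 and 0.248 FPKM in wild-type tumours.

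The hexokinases and phosphofructokinases varied from tumour to tumour, and their values overlapped between genotypes. Hk1 had 128, 68.7 and 99.5 FPKM in knockout tumours 5, 7 and 8 and 43.7, 141 and 191 FPKM in wild-type tumours 1, 2 and 4, while Hk2 had 1.26, 1.44 and 2.11 FPKM against 1.26, 1.13 and 2.82 FPKM. The Hk2 share of their sum was therefore small in all tumours, from 0.979% to 2.07% in knockout and from 0.795% to 2.8% in wild type (exact permutation p = 1). Pfkl had 14.9, 17.1 and 15.2 FPKM in knockout tumours and 8.43, 19.6 and 14.9 FPKM in wild-type tumours, and Pfkp had 13.8, 27.6 and 29.5 FPKM against 33.5, 12.3 and 15.1 FPKM. Pfkm was high in knockout 5 and in wild types 2 and 4, at 21.3, 7.28 and 4.73 FPKM in knockout tumours and 7.22, 41.0 and 30.8 FPKM in wild-type tumours. Hk1 and Pfkm thus shared their 3 highest tumours, those with the lowest T cell marker sums. The lactate transporter Slc16a1 was highest in the same ones, at 200, 46.7 and 65.3 FPKM in knockout tumours and 38.0, 96.8 and 153 FPKM in wild-type tumours. Slc16a1 was named here after its values were seen, and Pfkm is likewise outside the set of members given by sample. The part of cell make-up in these levels was not tested.

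Among the remaining named members all groups overlapped. Slc2a1 had 7.28, 12 and 21.4 FPKM in knockout tumours 5, 7 and 8 and 13.6, 6.11 and 4.04 FPKM in wild-type tumours 1, 2 and 4, and Slc2a3 had 14.5, 20.5 and 15.4 FPKM against 23.9, 18.8 and 34.9 FPKM. Pfkfb3 had 8.4, 14.1 and 5.16 FPKM in knockout tumours and 11.9, 5.61 and 3.3 FPKM in wild-type tumours, and Aldoa had 96.7, 179 and 181 FPKM against 131, 126 and 111 FPKM. Tpi1 had 35.7, 20.8 and 45.9 FPKM in knockout tumours and 29.2, 71.4 and 42.1 FPKM in wild-type tumours. In each of these genes of sugar uptake and cleavage the values of the 2 genotypes interleaved.

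Eno1, Pkm, Ldhb, Pdk1 and Hif1a peaked in wild-type tumour 1, whereas Ldha and Pgk1 peaked in knockout tumour 7. Eno1 had 11.8, 19.7 and 14.0 FPKM in knockout tumours 5, 7 and 8 and 32.9, 9.81 and 14.9 FPKM in wild-type tumours 1, 2 and 4, Pkm had 60.3, 124 and 111 FPKM against 177, 58.5 and 78.4 FPKM, and Ldhb had 4.41, 13.5 and 8.94 FPKM against 39.1, 6.94 and 10.8 FPKM. Pdk1 had 16.8, 18.8 and 6.56 FPKM in knockout tumours and 36.1, 18.7 and 15 FPKM in wild-type tumours, Hif1a had 38.1, 48.8 and 36.9 FPKM against 71.6, 20.7 and 23.1 FPKM, and Egln1 had 17.2, 33.4 and 23.1 FPKM against 32.8, 14.6 and 14.4 FPKM. Egln1 was close to its maximum there. Wild-type tumour 1 held the highest value of 10 of the 31 members, more than any other tumour, but also the lowest value of 6. It had the highest T cell marker sum. Knockout tumour 5 held the lowest value of 7 members, the most of any tumour. These counts were not made over all genes.

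Several members were at or near 0 in the tumours. Gapdh was listed at 0.532, 0 and 0 FPKM in knockout tumours 5, 7 and 8 and at 0 in the 3 wild-type tumours. Pgk1 was listed at 0.428, 3.5 and 0 FPKM in knockout tumours and at 2.66, 1.03 and 2.78 FPKM in wild-type tumours, although both are steps without which glycolysis does not run. Bnip3 was listed at 1.23, 0.926 and 0 FPKM in knockout tumours and at 0 in wild-type tumours, and Arrdc4 at 0.666, 1.79 and 0 FPKM against 0, 2.5 and 0 FPKM. In all, 2, 4 and 8 members were listed at 0 in knockout tumours 5, 7 and 8, against 5, 3 and 3 in wild-type tumours 1, 2 and 4, and 1, 0 and 2 in AMD3100 samples 1, 2 and 3, against 0, 1 and 0 in vehicle samples 1, 2 and 3. Of all 23174 rows, 11130, 11381 and 13231 were at 0 in knockout tumours 5, 7 and 8, against 11433, 10423 and 10997 in wild-type tumours 1, 2 and 4. The ex vivo samples had 10276 to 11267 such rows. Knockout tumour 8 thus had the most members and also the most rows of all genes at 0.

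No gene of the other pathway lists was called in the tumours. Mif, which fell with AMD3100, had 33.6, 55.7 and 85.8 FPKM in knockout tumours 5, 7 and 8, against 22.4, 26.6 and 13.9 FPKM in wild-type tumours 1, 2 and 4, a separation with a log2 change of 1.38 and an adjusted p of 0.986 by limma. Rora, of the same list as Mif, had risen with AMD3100 (log2 change 1.16, adjusted p = 0.0405 paired limma, and 0.0943 after length correction). It was also higher in knockout tumours, at 3.42, 2.66 and 3.88 FPKM against 2.28, 0.327 and 0 FPKM. Slc2a8, Dlat, Plin2 and Txn1 were lower in knockout tumours without overlap, when 9.21% of all genes did not overlap in either direction. These genes and Mif were named here after their values were seen. The differences between their ex vivo and tumour changes were not tested.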

How the data were processed

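Polyadenylated RNA of 12 samples was sequenced as strand-specific 50-base single reads, per the labels' protocols. CASAVA and TopHat were used on build mm9, per the submitters' processing notes. The authors deposited FPKM values in 2 tables of 6 samples, and no level is compared across them. Which program and annotation gave the FPKM, and whether strand was used, is not given in the sources used here.

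Rows with a mean of at least 1 FPKM were kept (10245 for the ex vivo table, 10741 for the tumour table). log2(FPKM + 1) was fitted with limma 3.58.1 in R 4.3.3 (eBayes with a mean trend, two-sided), each experiment alone, with Benjamini-Hochberg adjustment over all kept rows; an adjusted p under 0.05 was called. A fold change on this scale understates the change of low genes. The fits were also run on simulated data drawn without differences between replicate numbers, which cannot speak for the paired calls. Ex vivo samples share replicate numbers in the labels, which do not say what the number marks. Deviations from the group means correlated at 0.467, 0.579 and 0.619 within the 3 numbers, each over 0.1, so a paired fit, with the number as block, accompanies the unpaired one. Members and lists were chosen with earlier results of these data known. Per-sample values are given for called members and for a set of members named by the rule. Pfkm and Slc16a1 are given by tumour in addition. Of each other list, up to 3 called genes with the smallest p are named, apart from those said to be named after their values were seen. Promoters are RefSeq sequences of GRCm38.p6, and transcript windows of 37 members were matched to 13607 GENCODE pseudogene transcripts with bwa 0.7.19-r1273; these are not the authors' build, and their coordinates are not those of the tables. Alternatives were the pseudocount, the filter, 2 other scalings, the threshold, transcript length and leaving out samples.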

Additional observations from a re-analysis of the deposited data

How the results depend on the processing

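With the replicate block, the unpaired counts of 13 genes and 0 members became 2036 genes and 11 members. No paired analysis was possible for the tumours because they share no numbers. The unpaired counts were 847 genes and 5 members at an adjusted p under 0.10, 188 genes and 1 member (Ldha) with a mean of at least 5 FPKM, 8 genes with no filter and 3 genes with quantile normalisation; leaving out 1 sample gave 3 to 5 genes and 0 members. In the paired fit, 3455 genes passed an adjusted p under 0.10. With no filter the paired fit called 1074 genes and 5 members, with coding transcript length correction 1189 genes and 7 members, and with the longest transcript of any kind 1273 genes and 6 members. Without pairs 1, 2 and 3 in turn it called 9, 7 and 1207 genes, and 0, 1 and 4 members. The cause of these shifts was not tested. The same 11 members were called with a pseudocount of 0.1, with a mean of at least 5 FPKM and with median-of-ratios scaling; quantile normalisation took Gpi1 in and P4ha1 out. In the tumours, 0 genes were called with no filter and 0 to 4 when a tumour was left out, and 0 members were called under each alternative.

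None of the 11 members called in the paired fit changed direction under an alternative of that fit. Directions that reversed belonged to uncalled values. Ex vivo log2 changes without 1 sample ran from -0.51 to 0.33 for Ldhb, -0.29 to 0.14 for Slc2a3, -0.24 to 0.58 for Eno1, -0.65 to 0.011 for Hk1 and -0.34 to 0.88 for Pfkfb3. Paired changes without 1 pair ran from -0.13 to 0.042 for Ldhb (0.12 with either length correction), -0.38 to 0.10 for Slc2a3 and -0.084 to 0.35 for Eno1. Tumour changes without 1 tumour ran from -0.19 to 0.23 for Hk2 (0.061 with quantile normalisation), -0.35 to 0.11 for Ldha, -0.023 to 0.98 for Bnip3l, -0.77 to 0.28 for Hk1, -0.32 to 0.47 for Pkm, -0.11 to 0.45 for Pfkl, -0.55 to 0.28 for Eno1 and -0.0092 to 0.68 for Pfkp. The depth behind FPKM values is unknown for the tumours, so no counting interval is given.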
